A study of Rattus norvegicus with 11 samples.

Results

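To describe how the medial prefrontal cortex (mPFC) transcriptome of females with high ovarian hormone levels differed from that of males, the 3 proestrus libraries (replicates 1, 3 and 5) were compared with the 4 male libraries (replicates 2, 3, 4 and 5), which are 7 of the 11 libraries in the series. Each library is RNA sequencing of mPFC tissue punches from a Sprague-Dawley rat of 2 to 3 months with no treatment other than handling and, in females, daily vaginal smears. Libraries were assigned by their labels alone, and the 4 diestrus libraries entered only 1 alternative fit. Proestrus females were collected in the early afternoon of that stage, and males were killed on the same days as females. The study gives no hour for males, and it housed males and females in separate rooms. Sex, hormone state, smearing and room therefore cannot be told apart in this comparison. Punches hold every cell type of the tissue, so fewer cells of a type and less RNA per cell cannot be told apart.

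In the rat, proestrus comes before ovulation, when estrogen has peaked and progesterone is rising. Both hormones enter the brain and act through nuclear receptors that bind DNA and change transcription, as well as through receptors at the membrane. Neurons of the prefrontal cortex, an area of executive function and emotional control, carry such receptors. Males do not cycle, but their circulating hormones also vary between animals and over the day.

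The libraries held 15.9 to 23.3 M reads on genes, and a gene at the median of its library had 244 to 340 reads. The error from counting alone is then 5.42% to 6.40%. The table lists genes by Ensembl identifier without symbols, so the tissue label was not checked against marker genes and no gene function is given. To see where in the range of abundance the groups differed, the 15607 genes were divided by their mean normalized count over the 7 libraries, a read count scaled for library size. The 3826 genes with a mean below 50 took 0.372% of the reads, the 5705 genes with a mean of 50 to 500 took 6.53%, and the 6076 genes with a mean above 500 took 93.1%. These are called low, middle and high abundance genes.

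With all 7 libraries and no covariate, few genes differed between proestrus females and males, and nearly all of those were lower in proestrus. With limma, 23 genes passed the 5% false discovery rate (FDR), which is 0.147% of the genes tested. Of these, 2 were higher and 21 lower in proestrus. The count moved with single libraries and with the tool, to 3 genes without male replicate 5 and to 148 with DESeq2, of which 95 were lower in proestrus. Among the fits that left out 1 library, only that without male replicate 4 turned the direction, with 86 genes higher and 48 lower. A block for the replicate number, whose fold changes rest on replicates 3 and 5 alone, gave 672 genes, 524 of them higher in proestrus. Fold changes are given as proestrus minus males on the scale of log2(normalized count + 1), and the 21 lower genes had a median of −1.31. In all 23, the 3 proestrus values lay on 1 side of the 4 male values. This separation alone was common, as 2075 genes, or 13.3%, had groups that did not overlap.

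By abundance, the calls comprised 2 low, 9 middle and 12 high abundance genes, or 0.0523%, 0.158% and 0.197% of the genes in each class. These classes hold 24.5%, 36.6% and 38.9% of all genes, and a difference between them in the share called was not tested. The smallest called change, in log2, was 2.01 among low, 0.67 among middle and 0.51 among high abundance genes. This followed the precision of the fold changes, whose median standard error was 0.34, 0.15 and 0.09 in the same order. The 21 genes lower in proestrus had means from 48.1 to 5451 normalized counts and log2 fold changes from −0.51 to −2.04. Over these 21 genes, the median log2 level relative to the male mean was −1.24 in proestrus replicate 1, −1.35 in replicate 3 and −1.23 in replicate 5. The 4 males lay between −0.09 and 0.17 on the same measure. Gene by gene, the females were less even than these medians. Over the 23 genes the median log2 SD was 0.31 in proestrus and 0.23 in males, against 0.12 and 0.19 over all genes, and it was larger in males for 12 of the 23.

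**Figure D1:**
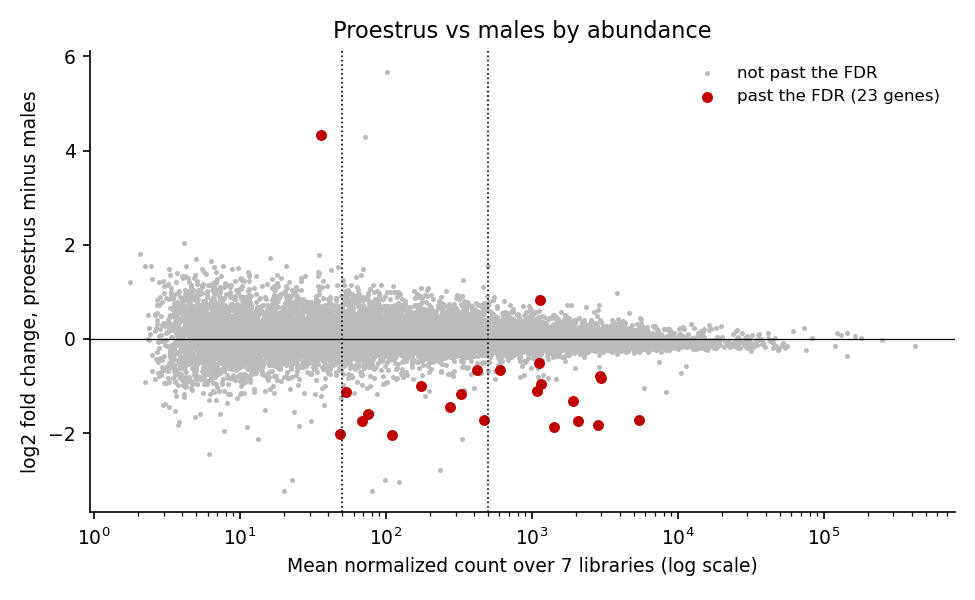
Each point is a gene, with its mean normalized count over the 7 libraries on a log axis and its log2 fold change, proestrus minus males. Dotted lines mark means of 50 and 500, red points are the 23 genes past the FDR, and all but 2 of these lie below 0.

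Single genes show how some of the clearest differences looked in each library. They were picked from these same libraries for large changes or small p and for groups without overlap. That choice favours their size and separation, so they do not stand for a typical gene. ENSRNOG00000018811, a middle abundance gene, had 121, 99.0, 111 and 93.9 normalized counts in male replicates 2, 3, 4 and 5. In proestrus replicates 1, 3 and 5 it had 32.2, 36.1 and 34.6. All females lay far below all males, with a male mean of 106 ± 12.2 (SD, n = 4) against 34.3 ± 2.00 in the females (SD, n = 3). Its log2 fold change was −1.60 (SE 0.16, limma adjusted p = 0.0042), and it passed the FDR whichever of the 7 libraries was left out.

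ENSRNOG00000049424, a high abundance gene, was lower in proestrus with a much wider spread among males. It had 2444, 5509, 3830 and 4725 normalized counts in male replicates 2 to 5, and 840.5, 1348 and 1229 in proestrus replicates 1, 3 and 5. The lowest male lay above the highest female, and the range of the males was wider than the gap between the groups. Its log2 fold change was −1.82 (SE 0.24, limma adjusted p = 0.024), with a log2 SD of 0.51 in males and 0.36 in proestrus. It no longer passed when male replicate 5 (limma adjusted p = 0.117), proestrus replicate 1 (0.0523) or proestrus replicate 5 (0.0584) was left out.

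ENSRNOG00000006186, also of high abundance, was higher in proestrus. Male replicates 2 to 5 had 844, 717, 1015 and 879 normalized counts, and proestrus replicates 1, 3 and 5 had 1508, 1448 and 1612. Male replicate 4 was the nearest to the females and male replicate 3 the farthest. The log2 fold change was 0.83 (SE 0.11, limma adjusted p = 0.024), and it was past the FDR without male replicate 3 (0.00504) or 4 (0.00409) but not without any of the other 5 libraries (0.0523 to 0.117).

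The other gene higher in proestrus, ENSRNOG00000037911, had a mean below 50 and was named after its values were seen. It had 4.14, 2.00, 2.36 and 3.87 normalized counts in male replicates 2 to 5 and 103, 70.3 and 67.3 in proestrus replicates 1, 3 and 5. Its log2 fold change was 4.32 (SE 0.31, limma adjusted p = 0.000352), and it passed in each fit that left out 1 library. At such low male counts the size rests on the pseudocount, and it was 3.38 with a pseudocount of 5.

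ENSRNOG00000020095, of middle abundance, lay just outside the threshold. It had 51.3, 48.0, 73.3 and 69.7 normalized counts in male replicates 2 to 5 and 147, 115.0 and 139.6 in proestrus replicates 1, 3 and 5. Males fell into a lower pair, replicates 2 and 3, and a higher pair, replicates 4 and 5, with all females above both. The log2 fold change was 1.15 (SE 0.19, limma adjusted p = 0.0522). Without male replicate 4 it passed (limma adjusted p = 0.0281), as it did with edgeR (0.0475) and DESeq2 (8.37e-05) and, in limma, with a pseudocount of 5 (0.0491), quantile normalization (0.039), weights per library (0.0144) or per group (0.0312) and the replicate block (0.00226). It did not pass without any of the other 6 libraries (limma adjusted p = 0.0558 to 0.254) or with the spread of all 11 libraries (0.131), and pseudocount 0.5, TMM or a minimum mean of 10 left it at 0.0525 to 0.0563.

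**Figure D2:**
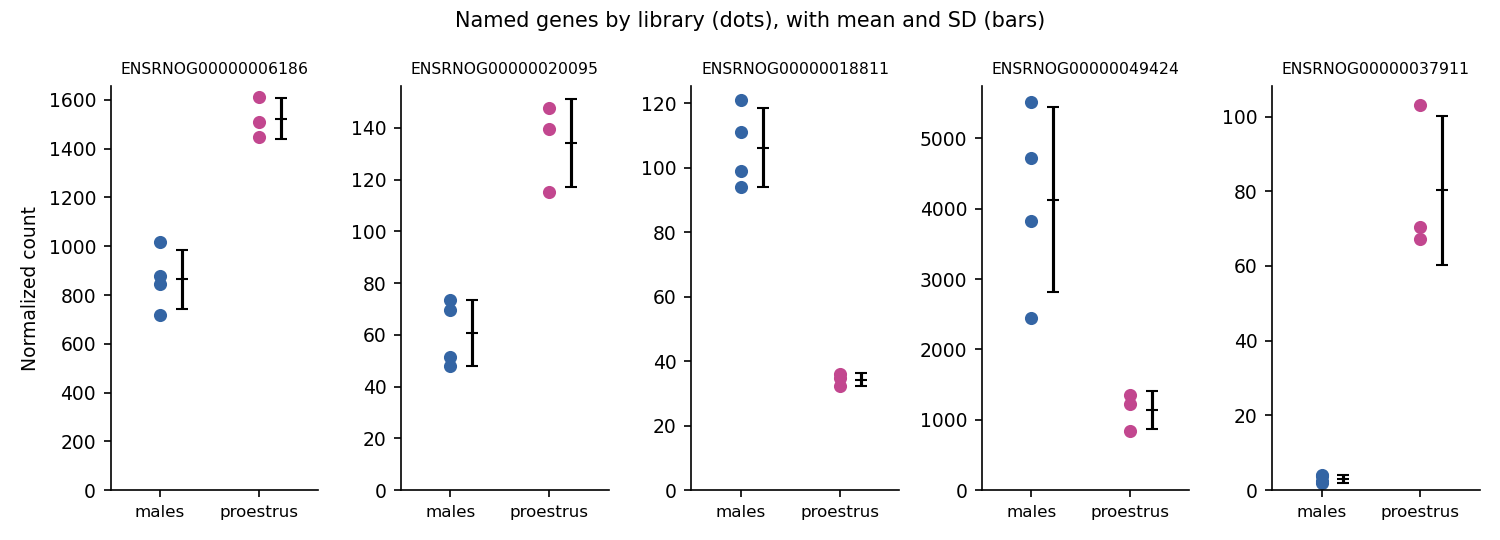
Normalized counts of the 5 named genes, with a dot for each of the 4 males (blue) and 3 proestrus females (pink) and the mean and SD beside them. In each gene the females lie on 1 side of the males, and males of ENSRNOG00000049424 range from 2444 to 5509.

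Just outside the threshold, at an adjusted p of 0.05 to 0.1 with limma, genes were still mostly lower in proestrus, with 3 higher and 14 lower. Far below it most were higher. At an unadjusted p below 0.05, limma gave 2035 of the 15607 genes, and most of them, 1306 against 729, had the higher value in proestrus. They were 8.94% of the low, 16.2% of the middle and 12.7% of the high abundance genes. Higher genes made up 69.0% of the low, 70.8% of the middle and 54.1% of the high abundance genes at this threshold. The median log2 fold change of all genes, called or not, was 0.088 in low, 0.037 in middle and −0.036 in high abundance genes. With the DESeq2 scaling, the table thus leaned towards proestrus at low and middle abundance and towards males at high abundance. The median over all genes was 0.0052, so a lean up in some classes came with a lean down in another.

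The lean was of the order of the spread of the males. The proestrus mean of these library medians differed from the male mean by 0.078, 0.043 and −0.032 in low, middle and high abundance genes, and the SD among males was 0.071, 0.026 and 0.038. Among low abundance genes, the median log2 level relative to the mean of the 7 libraries was −0.066, −0.054, 0.077 and 0.043 in male replicates 2 to 5, and 0.077, 0.065 and 0.091 in proestrus replicates 1, 3 and 5. Male replicate 4 lay among the females, with male replicate 5 below them. Among middle abundance genes all 3 females, at 0.024 to 0.041, lay above all males, at −0.043 to 0.016. This gave p = 0.0571 in an exact permutation test over 35 assignments, two-sided, which did not pass a correction over the 3 classes (adjusted p = 0.171). The smallest p this design allows is 0.0286. Among high abundance genes male replicates 2 and 3 stood at 0.036 and 0.065, and male replicates 4 and 5, at −0.013 and −0.011, lay within the range of the females (−0.018 to −0.009). The difference in these medians was not distinguishable from 0 for low (exact permutation p = 0.171, adjusted 0.257) or high abundance genes (exact permutation p = 0.286, adjusted 0.286). Quantile normalization, which forces equal distributions on the libraries, turned the median fold change to −0.0022 in low and −0.022 in middle abundance genes. With TMM scaling it was 0.030 in middle (exact permutation p = 0.171) and −0.044 in high abundance genes (exact permutation p = 0.114).

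**Figure D3:**
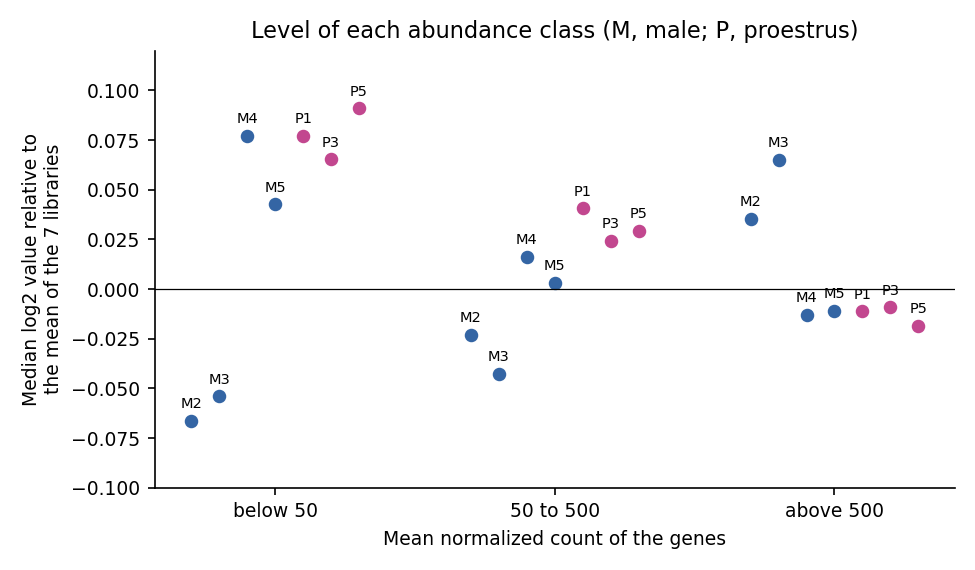
Median log2 value of the genes in each abundance class, relative to the mean of the 7 libraries, for each male (blue, M) and proestrus female (pink, P). Male replicates 4 and 5 lie near the females in the low and high abundance classes, and male replicates 2 and 3 lie apart from them.

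The direction of the lean thus depended on which male the females were set against. In low abundance genes, the median difference of the proestrus mean from a single male was 0.099 for replicate 2, 0.097 for replicate 3, −0.020 for replicate 4 and 0.013 for replicate 5. In high abundance genes it was −0.061, −0.089, 0.0068 and 0.0018 in the same order. Only in middle abundance genes did all 4 males give 1 direction (0.036, 0.052, 0.020 and 0.025). Set against male replicate 3 alone, 394 middle abundance genes were at least 2-fold higher in proestrus and 42 at least 2-fold lower. Against male replicate 4 alone the numbers were 8 and 21.

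Averaged over genes, the 4 males were more variable than the 3 proestrus females, with the highest ratio in abundant genes. Much of this came from 1 male. A test of the distances between libraries did not distinguish the groups in any class (exact permutation adjusted p = 0.743). The study had removed an outlying library from the proestrus group alone, and what this did to the ratio was not tested. The mean variance within a group, on the log2 scale, was 0.318 in males (n = 4) and 0.273 in proestrus (n = 3) for low abundance genes. It was 0.0786 and 0.0538 for middle, and 0.0284 and 0.0101 for high abundance genes. The ratio of males to proestrus was therefore 1.16, 1.46 and 2.82 with rising abundance. Counting error, computed from the depth, made up 56.5% of the male variance and 67.9% of the proestrus variance in low abundance genes, and 6.23% and 18.1% in high abundance genes. With counting error taken off, the ratios were 1.58, 1.65 and 3.22.

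Male replicate 3 added most to this spread. Without male replicate 3, the male variance fell to 0.293, 0.0535 and 0.0142 in low, middle and high abundance genes. The proestrus values were 0.273, 0.0538 and 0.0101, so the mean variance was about equal in both groups at middle abundance and still higher in males, by less, at high abundance. With 3 males against 3 females, so that both groups were of equal size, the SD was larger in males for 76.4% to 80.0% of the high abundance genes when male replicate 3 was among the 3 males, and for 62.4% when it was not. In middle abundance genes the shares were 63.6% to 69.0% with it and 56.1% without it.

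Distances between libraries gave the same order. For high abundance genes, the root mean square log2 difference per gene was 0.136 to 0.149 in the 3 pairs of females, and 0.149 to 0.347 in the 6 pairs of males. The farthest males were replicates 3 and 4, at 0.347, and the nearest were replicates 4 and 5. Male replicate 4 was nearer to each of the 3 females (0.144 to 0.168) than to male replicate 2 (0.189) or 3, and it was 0.149 from male replicate 5. Male replicate 3 was 0.352 to 0.374 from the females. At middle abundance, male replicate 4 was farther from proestrus replicate 1 (0.370) than from male replicate 2 (0.362). The mean distance within males exceeded that within proestrus by 0.056, 0.060 and 0.086 from low to high abundance. None of these differences was distinguishable from 0 (exact permutation test over 35 assignments, two-sided, p = 0.486, 0.743 and 0.571, each adjusted to 0.743). Without male replicate 3 the difference was −0.0012 in middle abundance genes.

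**Figure D4:**
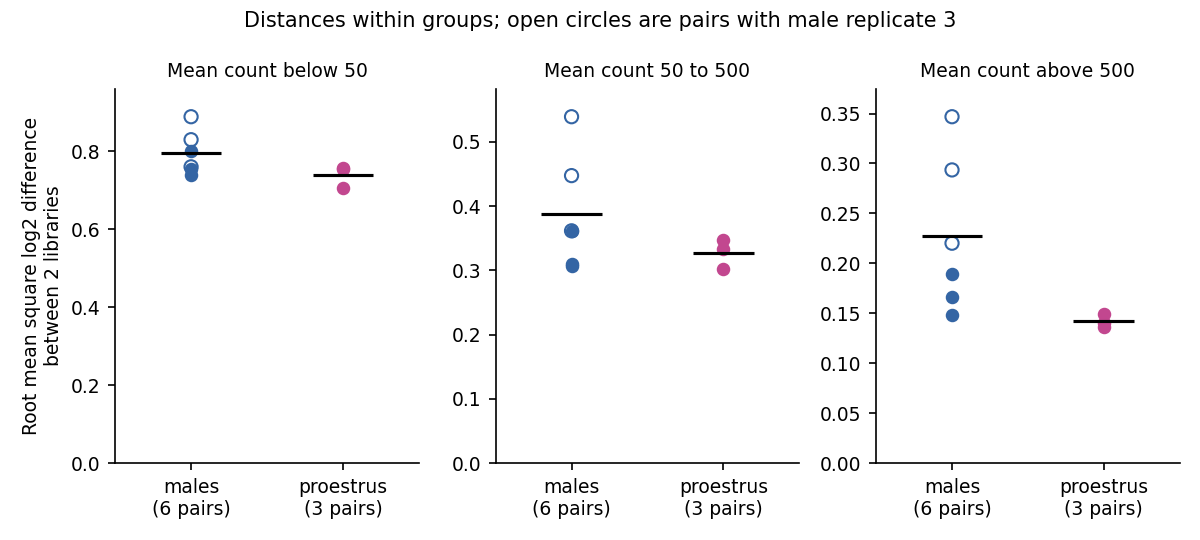
Root mean square log2 difference per gene between 2 libraries of 1 group, by abundance class, for the 6 pairs of males (blue) and 3 pairs of proestrus females (pink), with black lines at the means. Open circles are pairs with male replicate 3, which reach 0.347 in high abundance genes, whereas the pairs of females stay at or below 0.149.

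Male replicates 3 and 4, at opposite ends, acted on the comparison in different ways. Male replicate 3 lay away from the females and widened the estimate of the spread. Limma weights for libraries, which count a variable library less, gave it 0.311, the lowest, against 0.725 to 1.46 in the other males and 1.25 to 1.58 in proestrus. With these weights 53 genes (0.340%) passed, 11 higher and 42 lower in proestrus, among them all 23. With 1 weight for each group, 0.742 for males and 1.49 for proestrus, 24 genes passed. Leaving out male replicate 3 altogether gave 24 genes, of which 21 were among the 23, and the median standard error was 0.117 against 0.133 with all 7 libraries.

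Male replicate 4 was the male nearest to the proestrus mean in each abundance class, by root mean square log2 difference. Without it the number of genes past the FDR rose to 134 (limma), or 0.859%. All 23 genes were among these, and 111 were new. The direction turned as well, with 86 of the 134 genes, or 64.2%, higher in proestrus, against 2 of 23 with all males. By abundance these were 6 low, 84 middle and 44 high abundance genes. In the 84 new genes that were higher in proestrus, male replicate 4 was placed at a median of 0.78 of the way from the mean of the other males to that of the females, and in the 27 new lower genes at 0.44. Genes that pass once a library is left out are likely to be those where it went against the difference, so this position describes the genes and was not tested. This library was also the shallowest, with 15.9 M reads, and its part in the result was not tested.

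The same library kept the groups from separating in many more genes than any other male. In 2280 genes a complete separation of the groups failed through male replicate 4 alone. The corresponding numbers were 498, 382 and 831 genes for male replicates 2, 3 and 5, and 930, 1550 and 1277 for proestrus replicates 1, 3 and 5. Of the 2280 genes, 331 were of low, 841 of middle and 1108 of high abundance, and 1218 would have been higher and 1062 lower in proestrus. The direction differed by abundance. Higher genes outnumbered lower ones by 236 to 95 at low and 568 to 273 at middle abundance, and at high abundance 414 were higher and 694 lower.

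The spread among males differed with direction. In the 1306 genes higher in proestrus at an unadjusted p below 0.05, the median log2 SD was 0.30 in males and 0.12 in proestrus, and it was larger in males for 87.3% of them. In the 729 genes lower in proestrus the medians were 0.16 and 0.13, and it was larger in males for 57.3%. Their fold changes were larger in the higher genes (median log2 0.48 against −0.34), but so were the standard errors (0.17 against 0.12). In 71.9% of the higher genes, the male nearest to the proestrus mean was replicate 4, against 2.83% for replicate 3. In the lower genes the shares were 49.1% and 11.0%. Male replicate 4 was also nearest to the proestrus mean, and replicate 3 farthest, over all genes of each class. Their root mean square log2 differences from it were 0.630 and 0.811 at low, 0.272 and 0.562 at middle, and 0.131 and 0.354 at high abundance. Over all genes, the SD was larger in males for 59.7% of low, 68.0% of middle and 79.6% of high abundance genes. In the same order, the shares were 77.5%, 87.9% and 91.8% among the higher genes and 38.7%, 50.9% and 67.8% among the lower genes. The SD enters the p-value that chose these genes, so these figures are a description.

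The remaining libraries lowered the count when they were left out. Limma called 14 genes (0.0897%) without male replicate 2 and 3 genes (0.0192%) without male replicate 5. It called 19 (0.122%), 7 (0.0449%) and 5 (0.0320%) without proestrus replicates 1, 3 and 5. Each of these sets, except that without male replicate 5, held genes outside the 23. Of the 23 genes, 3 passed in all 7 fits that left out 1 library, 4 passed in 4 of them, and 16 passed in 1 to 3. No gene of the 23 changed direction in any of these fits.

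The count differed between tools and settings, which change the model, the scale or the genes tested together with the estimate of the spread. With edgeR on the recovered reads 24 genes passed (0.154%), 22 of them among the 23. DESeq2 called 148 genes (0.948%), with all 23 among them, 53 higher and 95 lower in proestrus. With the spread taken from all 11 libraries, limma called 13 genes (0.0833%), and with genes of a mean under 10 left out it called 20 (0.141%). A block for the replicate number, which 2 libraries of each group share, left 1 residual degree of freedom and gave 672 genes (4.31%), 524 of them higher in proestrus.

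**Figure D5:**
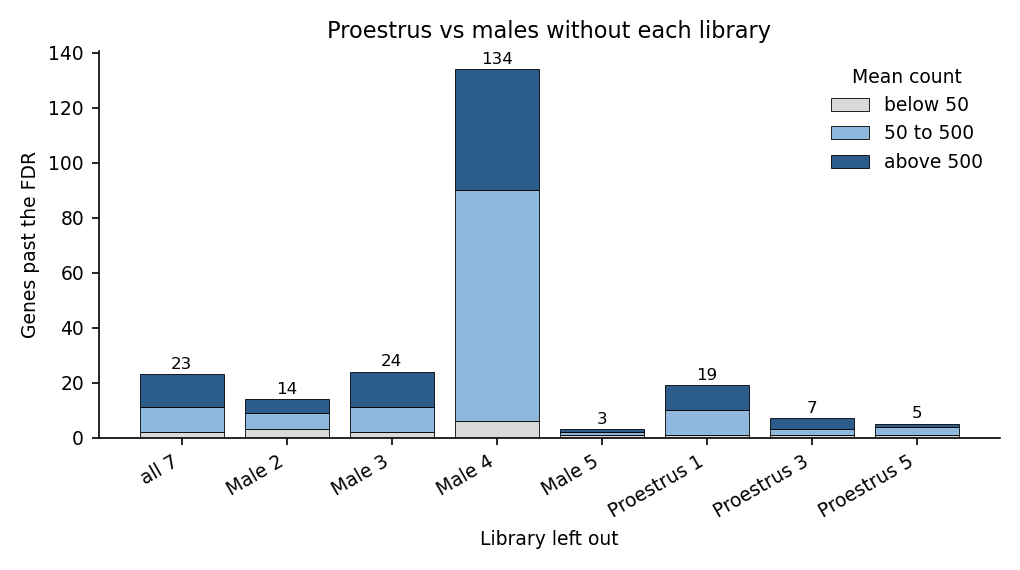
Number of genes past the FDR (limma) with all 7 libraries and without each library in turn, stacked by the mean normalized count of the genes. The bar without male replicate 4 reaches 134, against 23 with all 7 libraries and 3 to 24 without any other.

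Large fold changes were mostly not called. Of 246 genes with a log2 fold change of at least 1 in size, 15 passed the FDR with limma. They were 6 of 9 such high abundance genes, 7 of 48 middle and 2 of 189 low abundance genes. The 231 that did not pass had a median of 10.2 normalized counts, and 158 of them were higher in proestrus. Their median log2 SD was 0.71 in males and 0.45 in proestrus, against 0.39 and 0.37 in the 15 called genes. Beyond a log2 fold change of 2 in size, 3 genes passed and 12 did not. In 10 of these 12, the log2 SD reached 1 in at least 1 group, in males for 5 genes and in proestrus for 8. Among genes of large fold change the SD largely decides which pass, so a larger SD in those not called describes the choice.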

How the data were processed

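Punches of the mPFC were sequenced from 4 males and 3 proestrus females, each a biological replicate in the study's words, as poly(A)-selected, unstranded libraries. Per the labels and the study's methods, the authors trimmed reads with Trimmomatic 0.32, aligned them with TopHat2 2.0.11 and Bowtie2 2.1.0 to Rnor_5.0, counted unique reads per gene with HTSeq 0.6.1p1, dropped genes under a minimum set by spike-in RNA and removed an outlying proestrus library, not used here. The deposited signal is reads divided by DESeq2 size factors, set over all 11 libraries. Dividing each library by its smallest step gave whole numbers (100% within 0.01), taken as reads. A second deposited signal table, of 15724 genes, entered no comparison, since its column totals, 15.9 to 24.6 M, are not scaled for depth. In the 9 pairs of libraries of a group, chi-square per degree of freedom was 5.55 to 27.2, so none was a copy.

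Limma 3.58.1 (R 4.3.3) was fitted to log2(normalized count + 1) of all 15607 genes in the 7 libraries, with a prior variance that followed abundance, no covariate and Benjamini-Hochberg adjustment at an FDR of 0.05. This scale understates changes of low genes. edgeR 4.0.16 (quasi-likelihood) and DESeq2 1.42.0 were run on recovered reads. Nothing in the labels places libraries of a group in separate batches. Further alternatives were pseudocounts of 0.5 and 5, a mean of at least 10, TMM and quantile normalization, library weights, the spread of all 11 libraries, a replicate block, each library left out, and abundance classes by the mean of both group means. Fits were tested on artificial counts with known answers.

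Up to 2 genes in each direction were named, with groups that did not overlap and a mean of at least 50: first those among the 10 largest changes past the FDR, by p, then those with the smallest p in their class. The reference table of 47357 RefSeq genes matched 0 identifiers, and no names were taken from the study's supplement, so gene lists by symbol were not applied. The comparison, classes and rules were chosen with earlier results of these data known.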

Additional observations from a re-analysis of the deposited data

Results flagged for a closer look

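In male replicate 3, the top 20 genes by reads took 13.4% of all reads, against at most 12.2% in the other 3 males. This gap made up 0.860 of the range of the males, above the limit of 0.829 for 4 samples. It was the only one of 16 sets of 4 male values examined to pass this limit, and chance gives about 1 in 20. Proestrus replicate 5 also had 13.4%, and in high abundance genes it lay 0.136 and 0.140 from the other females, nearer than they were to each other (0.149). Whether this share bears on the place of male replicate 3 among the males was not tested.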

How the results depend on the processing

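The count of 23 genes stayed within 1.5 times under both pseudocounts, the filter on low means, TMM and quantile normalization, weights per group, edgeR and the genes called by both edgeR and DESeq2 (19 to 26). It was 53 with weights per library (23 middle and 28 high abundance genes), 13 with the spread of all 11 libraries (2 middle abundance genes) and 148 with DESeq2 (8 low, 80 middle and 60 high abundance genes, 53 of the 148 higher in proestrus, and 2120 genes without an adjusted p). Without single libraries it was 3 to 134, with 1 to 6 low, 1 to 84 middle and 1 to 44 high abundance genes. The replicate block, in which numbers 3 and 5 alone occur in both groups, gave 672 genes (65 low, 360 middle and 247 high abundance genes, 524 higher in proestrus), with 1 residual degree of freedom and an infinite prior one. Deviations of same-numbered libraries correlated weakly (r = 0.072 and 0.065), and proestrus replicate 1 with male replicate 2 as much (r = 0.065). No source says that a number marks a shared day, so pairing is unresolved. Genes without overlap numbered 490 to 708 low, 988 to 1671 middle and 979 to 1984 high abundance genes without single libraries, which fewer values make more likely. The median fold change kept its direction in every class without single libraries (low 0.062 to 0.112, middle 0.034 to 0.046, high −0.051 to −0.016), and quantile normalization turned it to −0.0022 in low (exact permutation p = 0.743) and −0.022 in middle abundance genes (exact permutation p = 0.343). The difference in distance within males and within proestrus was 0.026 to 0.089, −0.0012 to 0.104 and 0.026 to 0.121 from low to high abundance without single libraries, and turned negative only in middle abundance genes without male replicate 3. None of the named genes changed direction in any setting. The cause of these changes was not tested. In low abundance genes, counting error made up most of the variance in both groups and limits what can be seen there.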
